A study of Homo sapiens with 9 samples.

Results

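The genes described are 38 enzymes, transporters and regulatory enzymes of glycolysis, of lactate formation and export, of the entry of pyruvate into mitochondria and of the pentose phosphate pathway. The list was drawn up by pathway step, with earlier results of these data known. Each gene was found in the count table by its NCBI gene identifier, and all 38 of 38 were present among the 28395 genes of the table. RNA-seq had been run on 3 human kidney lines cultured in Plasmax, a medium with the nutrients of human serum, with 3 libraries per line and 9 in all. HK2 (HK-2) is an immortalized line of normal proximal tubule epithelium. 786-O is a line from a primary clear cell renal cell carcinoma (ccRCC), which lacks the tumour suppressor VHL. 786-M1A is a metastatic derivative of 786-O, taken from lung metastases that formed once cells had been injected in vivo. The labels name no drug or genetic change for any of the 3 lines, and each is a single line, so that a difference between HK2 and a cancer line is also a difference between the donors of these lines. In what follows HK2 cells means the line, and *HK2* in italics means the gene of hexokinase 2.

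Glycolysis splits glucose into pyruvate in the cytosol. Pyruvate is either reduced to lactate, which leaves the cell with a proton through monocarboxylate transporters, or carried into mitochondria, where the pyruvate dehydrogenase complex turns it into acetyl-CoA. The pentose phosphate pathway branches off after the hexokinase step and gives NADPH and ribose phosphate. Several steps have isozymes, coded by separate genes, with different kinetics and tissue distribution. In ccRCC, hypoxia-inducible factors (HIF) are stabilized also with oxygen, and they are known to induce many glycolytic genes.

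The deposited values were raw read counts per gene. The totals per library lay between 30212291 and 45362428 counts, and the levels given here are counts per 1000000 counts of a library (CPM) after scaling with edgeR's TMM factors, which lay between 0.967 and 1.03. Each of the 9 libraries was most alike to the others of its own line, and the biological coefficient of variation over all genes was 3.93%. The canonical proximal tubule marker *LRP2* was at 0 in every library, *CUBN* and *AQP1* reached at most 1.28 and 1.35 CPM, and the summed level of the 12 listed tubule markers was 110.3 to 115.5 CPM in HK2 cells, 193.2 to 199.2 in 786-O and 107.2 to 118.2 in 786-M1A. *GGT1* (mean of 107.5, 80.5 and 88.2 CPM in HK2 cells, 786-O and 786-M1A) and *ANPEP* (1.74, 111.7 and 19.8 CPM) made up most of this sum. Of the listed kidney lineage and ccRCC markers, *PAX8* lay between 159.9 and 191.7 CPM in all libraries. It was slightly higher in 786-M1A than in HK2 cells (log2 fold change 0.12, adjusted p = 0.0107 in edgeR's quasi-likelihood test) and than in 786-O (log2 fold change 0.14, adjusted p = 0.00629). The others that were tested differed more, with means of 3.48, 24.9 and 10.7 CPM for *PAX2*, 100.7, 37.4 and 22.5 for *LHX1*, 1.72, 49.98 and 127.4 for *EGLN3* and 19.3, 162.4 and 329.8 for *VEGFA*. *CA9* was too low to be tested, with means of 0.0, 0.0311 and 0.0088 CPM, and *NDUFA4L2* was not found in the count table. Summed endothelial and leukocyte markers did not pass 0.453 CPM, and the sum of 3 listed fibroblast markers was 54.2 to 63.2 CPM in HK2 cells, 263 to 332 in 786-O and 296 to 301 in 786-M1A. The fibroblast sum was nearly all *COL1A1* in HK2 cells and 786-O (mean of 53.6, 291 and 16.5 CPM in the 3 lines) and nearly all *PDGFRB* in 786-M1A (4.98, 2.59 and 281.5 CPM), with *DCN* at no more than 0.151 CPM, and the part of these genes in the results was not tested. A CPM is a share of the RNA of a culture, so that a change in a gene and a change in the total RNA per cell cannot be told apart.

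The 38 genes together took 1.96% ± 0.034 (SD, n = 3) of all counts in HK2 cells, 2.07% ± 0.026 in 786-O and 2.15% ± 0.063 in 786-M1A. The libraries of each cancer line lay above those of HK2 cells (exact permutation test, two-sided, p = 0.1, which is the lowest value that this number of libraries allows). Single genes differed far more than the sum.

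Compared per kilobase of annotated exon, *GAPDH*, which oxidizes glyceraldehyde 3-phosphate, was the highest member in all 3 lines, with 1846 CPM per kb in HK2 cells, 1386 in 786-O and 1424 in 786-M1A. *ENO1*, the main enolase, came second in each line (582, 616 and 733 CPM per kb). *LDHB* held rank 3 in HK2 cells and rank 7 in both cancer lines, whereas *LDHA* moved from rank 8 to rank 5. At the lower end, *ALDOC* was at 0.168 CPM per kb in HK2 cells, the lowest member there, and *PFKFB2* was the lowest in 786-M1A with 0.850 CPM per kb.

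The comparison of 786-O with HK2 cells asks how a primary ccRCC line differs from a line of normal tubule epithelium. In it, 33 of the 38 genes passed an adjusted p of 0.05 (edgeR's quasi-likelihood test, Benjamini-Hochberg over 12695 genes). 18 of them were higher and 15 lower, where 84.2% of all genes tested passed, 41.6% higher and 42.6% lower. A difference of at least 2-fold beside the adjusted p was found for 8 of the 38, against 22.3% of all genes. In 34 of the 38 the libraries of the lines did not overlap, against 85.4% of all genes. These shares were near those of all genes, and the median log2 fold change was 0.01 over the 38 genes and -0.01 over all. *ALDOC* is included in the 33 that passed, the 18 higher, the 8 past 2-fold and the 34 without overlap. It passed the filter on mean counts only through the cancer lines and so had to differ.

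The comparison of 786-M1A with HK2 cells used the same HK2 libraries. Here 35 of the 38 genes passed, 20 higher and 15 lower, against 84.9% of all genes, 41.6% higher and 43.3% lower. A difference of 2-fold or more was found for 9 genes (25.4% of all genes), and the libraries of 35 did not overlap (85% of all genes). The median log2 fold change was 0.13 over the 38 genes and -0.02 over all. *ALDOC* is again included, in the 35 that passed, the 20 higher, the 9 past 2-fold and the 35 without overlap.

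The comparison of 786-M1A with its parent 786-O asks how this single metastatic derivative differs from the line it came from. In it, 27 of the 38 genes (71.1%) passed, 17 higher and 10 lower in 786-M1A, against 56% of all genes, 27.9% higher and 28% lower. No gene reached 2-fold, while 6.59% of all genes did, and the libraries of 32 did not overlap (61.6% of all genes). The median absolute log2 fold change was 0.21 over the 38 genes and 0.17 over all, compared with 0.43 and 0.47 for 786-O against HK2 cells.

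**Figure D1:**
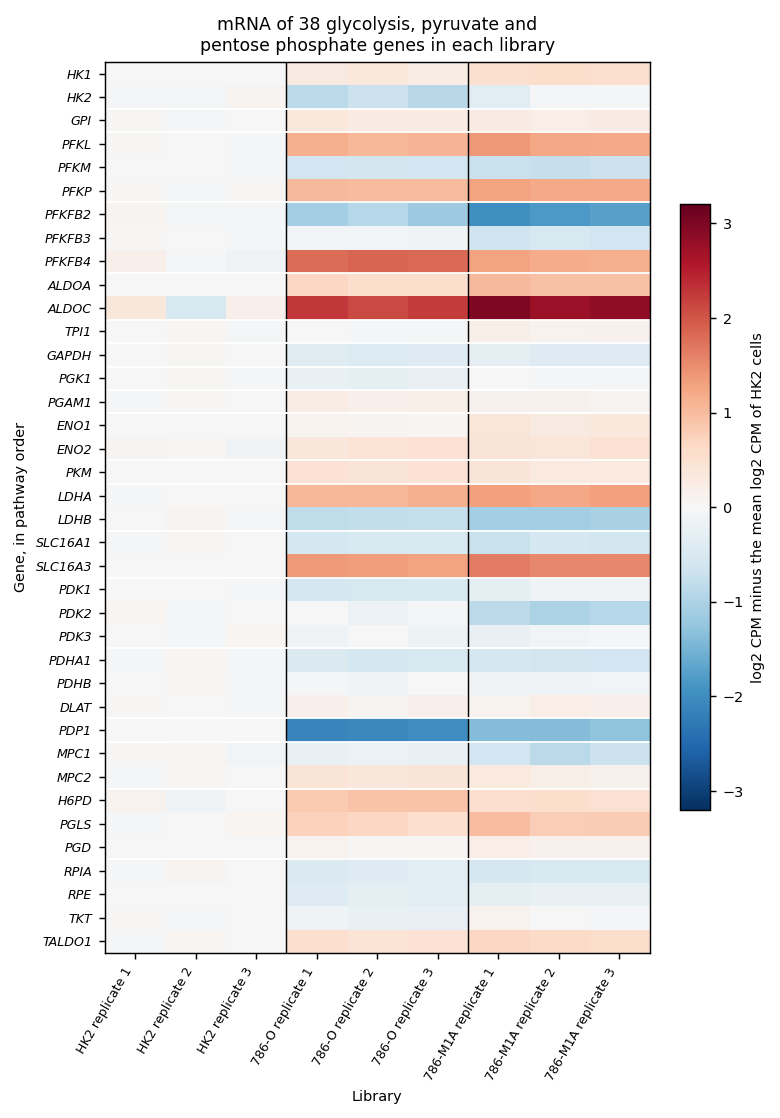
Level of the 38 genes (rows, in pathway order) in each of the 9 libraries (columns), as log2 CPM minus the mean log2 CPM of the 3 HK2 libraries; red is higher and blue lower. The replicates of a line share their colours in nearly every row, and the strongest colours are at *ALDOC*, *PFKFB4*, *SLC16A3*, *PDP1* and *PFKFB2*.

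**Figure D2:**
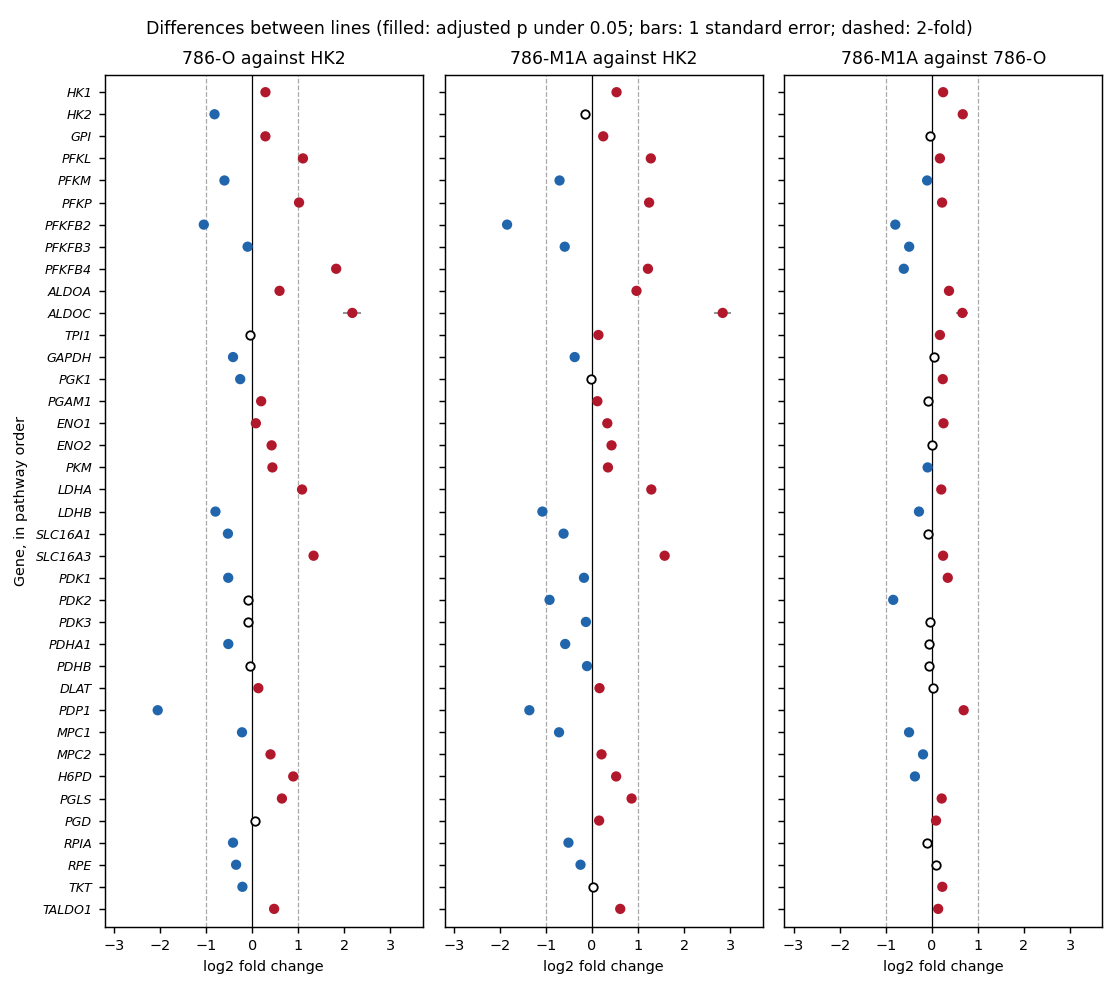
Log2 fold change (x axis) of each of the 38 genes (y axis, in pathway order) in the 3 comparisons, with bars of 1 standard error; filled points passed an adjusted p of 0.05 and dashed lines mark 2-fold. Points on both sides of 0 are found in each comparison, and none of the right-hand panel (786-M1A against 786-O) reaches a dashed line.

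At lactate dehydrogenase the more abundant of the 2 mRNAs was not the same in HK2 cells and in the cancer lines. *LDHA* codes for the subunit that favours the reduction of pyruvate to lactate, and *LDHB* for the subunit that favours the reverse reaction. *LDHA* (chr11:18394560-18408425, GRCh38, plus strand) stood at 819.6, 859 and 855 CPM in the HK2 libraries, 1755, 1775 and 1843 in 786-O and 2089, 2007 and 2093 in 786-M1A. The cancer lines were above every HK2 library, and 786-M1A above every 786-O library.

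*LDHA* was 2.12-fold higher (log2 fold change 1.08 ± 0.033 SE, adjusted p = 6.02e-18) in 786-O than in HK2 cells and 2.44-fold higher (log2 fold change 1.29 ± 0.034 SE, adjusted p = 2.66e-19) in 786-M1A. From 786-O to 786-M1A it was 1.15-fold higher (log2 fold change 0.20 ± 0.033 SE, adjusted p = 1.91e-05). *LDHB* (chr12:21635342-21757857, minus strand) moved the other way, with 1229, 1327 and 1184 CPM in the HK2 libraries, 710.0, 716 and 729.6 in 786-O and 585, 578 and 612 in 786-M1A. No library of one line overlapped with those of another. *LDHB* was 1.74-fold lower (log2 fold change -0.80 ± 0.039 SE, adjusted p = 2.36e-14) in 786-O than in HK2 cells, 2.11-fold lower (log2 fold change -1.08 ± 0.039 SE, adjusted p = 1.03e-16) in 786-M1A than in HK2 cells and 1.22-fold lower (log2 fold change -0.28 ± 0.039 SE, adjusted p = 2.61e-06) in 786-M1A than in 786-O.

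Per kilobase of exon, *LDHB* mRNA was 3.03, 3.12 and 2.80 times *LDHA* mRNA in the 3 HK2 libraries, 0.817, 0.815 and 0.800 times in 786-O and 0.566, 0.582 and 0.590 times in 786-M1A. The order of the 2 subunits was thus exchanged, with *LDHA* at 25.1% ± 1.07 (SD, n = 3) of their sum in HK2 cells, 55.2% ± 0.29 in 786-O and 63.3% ± 0.50 in 786-M1A. The log2 ratio of *LDHB* to *LDHA* differed by -1.88 ± 0.059 (pooled SD, n = 3 per line) between 786-O and HK2 cells, by -2.36 ± 0.062 between 786-M1A and HK2 cells and by -0.48 ± 0.025 between 786-M1A and 786-O, each with p = 0.1 in the exact two-sided permutation test. The exchange was also found with the length of the longest transcript in place of all exons, with log2 ratios of 1.10, -0.77 and -1.26 in the 3 lines. GENCODE lists 6 pseudogenes of *LDHA* and 3 of *LDHB*, whose reads the counting may share.

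Their sum differed far less than either gene. It was 558 ± 25.8 CPM per kb (SD, n = 3) in HK2 cells, 538 ± 11.02 in 786-O and 541 ± 12.9 in 786-M1A (exact two-sided permutation test, p = 0.3 for 786-O and p = 0.5 for 786-M1A against HK2 cells). With the longest transcript as length the sum was 1187, 1266 and 1305 CPM per kb, 1.07-fold and 1.10-fold that of HK2 cells (p = 0.2 and p = 0.1 in the same exact test), so that the size of the sum depended on the length chosen.

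The lactate transporters showed an exchange of the same form. *SLC16A1* codes for MCT1, which carries lactate in either direction, and *SLC16A3* for MCT4, known as a lactate exporter of glycolytic cells and as a hypoxia-induced gene. *SLC16A3* (chr17:82217934-82261129, plus strand) stood at 178, 176 and 174 CPM in the HK2 libraries, 454, 444 and 433 in 786-O and 551, 515 and 510.2 in 786-M1A, without overlap between lines. It was 2.52-fold higher (log2 fold change 1.33 ± 0.037 SE, adjusted p = 1.18e-18) in 786-O and 2.98-fold higher (log2 fold change 1.58 ± 0.038 SE, adjusted p = 5.99e-20) in 786-M1A than in HK2 cells, and 1.18-fold higher (log2 fold change 0.24 ± 0.036 SE, adjusted p = 7.38e-06) in 786-M1A than in 786-O.

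*SLC16A1* (chr1:112911847-112957593, minus strand) stood at 260.1, 275 and 268 CPM in the HK2 libraries, 181, 190.4 and 187 in 786-O and 165, 180.0 and 179 in 786-M1A. Every HK2 library was above every cancer library. *SLC16A1* was 1.44-fold lower (log2 fold change -0.53 ± 0.040 SE, adjusted p = 5.92e-11) in 786-O and 1.53-fold lower (log2 fold change -0.62 ± 0.040 SE, adjusted p = 3.4e-12) in 786-M1A than in HK2 cells. Between the cancer lines its log2 fold change was -0.09 (adjusted p = 0.0576), and it passed without 786-M1A replicate 2 (adjusted p = 0.0442) or without 786-M1A replicate 3 (adjusted p = 0.0459).

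Per kilobase, *SLC16A3* was 0.471, 0.439 and 0.447 times *SLC16A1* in the HK2 libraries, 1.72, 1.60 and 1.59 times in 786-O and 2.30, 1.96 and 1.95 times in 786-M1A. Its share of the 2 was 31.1% ± 0.78 (SD, n = 3) in HK2 cells, 62.1% ± 1.03 in 786-O and 67.4% ± 2.02 in 786-M1A. Unlike at lactate dehydrogenase, the sum of both transporters was also higher, 61.2 ± 1.03 CPM per kb in HK2 cells, 77.4 ± 0.95 in 786-O and 84.4 ± 1.10 in 786-M1A (exact two-sided permutation test, p = 0.1 for each pair of lines). Both transporter genes have a neighbour on the opposite strand in the count table (*SLC16A1-AS1* and *CSNK1D*), and whether the counting used strand is not given in the sources used here. The same holds for *PFKM* (*SENP1*), *PFKFB2* (*YOD1*) and *PDK2* (*SAMD14*), and *ALDOC* and *PFKFB4* overlap on their own strand with *RSKR* and *UCN2*.

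**Figure D3:**
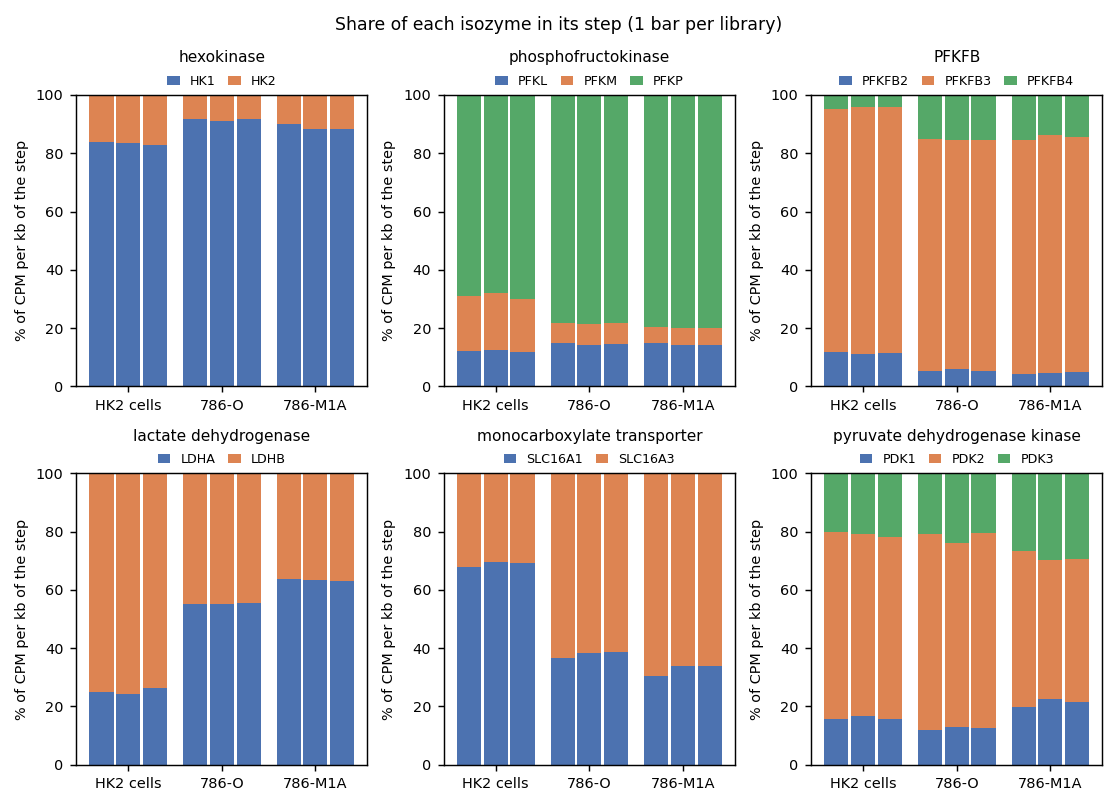
Share of each isozyme (y axis, in % of the CPM per kb of exon summed over the genes shown) in 6 steps, with 1 bar per library in groups of 3 for HK2 cells, 786-O and 786-M1A. *LDHA* and *SLC16A3* pass from the smaller to the larger share between HK2 cells and both cancer lines, and *PFKM* and *PFKFB2* shrink.

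At the head of the pathway, the 2 hexokinases of the main list, *HK1* and *HK2*, went different ways in 786-O against HK2 cells. A further hexokinase gene, *HKDC1*, belongs to the other pathway genes given below and is not part of the hexokinase ratio. Its mean was 223.8 CPM in HK2 cells, above the 203.5 CPM of *HK1* there, and fell to 89.55 in 786-O and 42.92 in 786-M1A. Hexokinase mRNA summed with *HKDC1* was not tested. *HK1* codes for the broadly expressed enzyme, and *HK2* for the inducible one that many tumours express. *HK1* stood at 204, 201 and 206 CPM in the HK2 libraries, 250.2, 255 and 241 in 786-O and 292, 301 and 291 in 786-M1A, with no overlap between lines. Its log2 fold changes were 0.29 in 786-O and 0.53 in 786-M1A against HK2 cells and 0.24 between the cancer lines (adjusted p = 1.25e-07, 4.41e-12 and 4.14e-06).

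*HK2* (chr2:74834127-74893359, plus strand) stood at 33.5, 34.4 and 37.1 CPM in the HK2 libraries, 19.1, 21.7 and 19.1 in 786-O and 27.6, 34.3 and 33.2 in 786-M1A. Every 786-O library was below all others, and the HK2-cell and 786-M1A libraries overlapped. It was 1.76-fold lower (log2 fold change -0.82 ± 0.076 SE, adjusted p = 3.17e-08) in 786-O than in HK2 cells and 1.59-fold higher (log2 fold change 0.67 ± 0.077 SE, adjusted p = 1.48e-06) in 786-M1A than in 786-O. Between 786-M1A and HK2 cells its log2 fold change was -0.15 (adjusted p = 0.0728), which passed once 786-M1A replicate 2 was left out (adjusted p = 0.0175) or the replicate number was a block (adjusted p = 0.0299). Per kilobase, *HK2* was 0.200 times *HK1* in HK2 cells, 0.0931 times in 786-O and 0.124 times in 786-M1A.

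Phosphofructokinase, which commits fructose 6-phosphate to glycolysis, has a liver-type (*PFKL*), a muscle-type (*PFKM*) and a platelet-type (*PFKP*) gene. *PFKL* (chr21:44300051-44327376, plus strand) stood at 94.1, 93 and 90 CPM in the HK2 libraries, 206, 193 and 197 in 786-O and 241, 217 and 213 in 786-M1A. *PFKP* (chr10:3066333-3137718, plus strand) stood at 466, 438 and 465 CPM in the HK2 libraries, 941, 917 and 917 in 786-O and 1118, 1064 and 1053 in 786-M1A. Both were higher in every library of the cancer lines than in any of HK2 cells.

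*PFKL* was 2.15-fold higher (log2 fold change 1.10 ± 0.045 SE, adjusted p = 1.03e-15) in 786-O and 2.42-fold higher (log2 fold change 1.28 ± 0.045 SE, adjusted p = 6.77e-17) in 786-M1A than in HK2 cells, and *PFKP* was 2.02-fold higher (log2 fold change 1.02 ± 0.035 SE, adjusted p = 5.84e-17) and 2.36-fold higher (log2 fold change 1.24 ± 0.036 SE, adjusted p = 1.61e-18). The 2-fold difference of *PFKP* in 786-O was marginal, with a log2 fold change of 0.99 without HK2 replicate 2, which left 7 of the 8 genes past 2-fold in that comparison. In 786-M1A both were slightly higher than in 786-O, with log2 fold changes of 0.17 and 0.22 (adjusted p = 0.00197 and 1.51e-05).

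*PFKM* (chr12:48105139-48146404, plus strand) stood at 118, 118 and 114 CPM in the HK2 libraries, 76.7, 78.1 and 76 in 786-O and 71.3, 70.6 and 73 in 786-M1A, with no overlap between lines. It was 1.52-fold lower (log2 fold change -0.60 ± 0.038 SE, adjusted p = 2.14e-12) in 786-O and 1.63-fold lower (log2 fold change -0.70 ± 0.038 SE, adjusted p = 1.31e-13) in 786-M1A than in HK2 cells. Its log2 fold change of -0.10 between the cancer lines (adjusted p = 0.0276) was lost without 786-M1A replicate 2 (adjusted p = 0.0943), 786-O replicate 1 (adjusted p = 0.0698) or 786-O replicate 2 (adjusted p = 0.0989).

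Per kilobase, *PFKM* was 1.56 times *PFKL* in HK2 cells, 0.478 times in 786-O and 0.395 times in 786-M1A, while the ratio of *PFKP* to *PFKL* was 5.67, 5.36 and 5.54. The log2 ratio of *PFKP* to *PFKL* differed by -0.08 ± 0.051 (pooled SD, n = 3 per line) between 786-O and HK2 cells, by -0.03 ± 0.059 between 786-M1A and HK2 cells and by 0.05 ± 0.040 between 786-M1A and 786-O (exact two-sided permutation test, p = 0.2, 0.4 and 0.3). *PFKP* made up 68.9% ± 1.03 (SD, n = 3) of phosphofructokinase mRNA in HK2 cells, 78.4% ± 0.10 in 786-O and 79.9% ± 0.25 in 786-M1A. The sum of the 3 genes was 85.2 ± 1.90, 151.8 ± 2.52 and 173.7 ± 6.11 CPM per kb, with p = 0.1 for each pair of lines in the exact test.

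The *PFKFB* genes code for bifunctional enzymes that make and break down fructose 2,6-bisphosphate, the strongest activator of phosphofructokinase. *PFKFB4* (chr3:48517684-48562015, minus strand) stood at 7.91, 6.94 and 6.54 CPM in the HK2 libraries, 24.5, 25.7 and 25 in 786-O and 17.2, 16.1 and 15.9 in 786-M1A. It was lowest in HK2 cells, highest in 786-O and intermediate in 786-M1A, with no overlap. It was 3.54-fold higher (log2 fold change 1.82 ± 0.068 SE, adjusted p = 1.96e-16) in 786-O and 2.32-fold higher (log2 fold change 1.21 ± 0.072 SE, adjusted p = 6.32e-13) in 786-M1A than in HK2 cells, and 1.53-fold lower (log2 fold change -0.61 ± 0.061 SE, adjusted p = 2.2e-08) in 786-M1A than in 786-O.

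*PFKFB2* (chr1:207034366-207081024, plus strand) was lower from line to line, with 33.1, 30.4 and 29.8 CPM in the HK2 libraries, 14.6, 16.5 and 14 in 786-O and 7.96, 8.75 and 9.24 in 786-M1A and no overlap. It was 2.07-fold lower (log2 fold change -1.05 ± 0.066 SE, adjusted p = 1.91e-12) in 786-O and 3.59-fold lower (log2 fold change -1.84 ± 0.072 SE, adjusted p = 3.5e-16) in 786-M1A than in HK2 cells, and 1.73-fold lower (log2 fold change -0.79 ± 0.077 SE, adjusted p = 1.43e-08) in 786-M1A than in 786-O. Without 786-O replicate 3 its log2 fold change in 786-O against HK2 cells was -0.9999, just under 2-fold. The isozyme *PFKFB3*, whose kinase activity greatly exceeds its phosphatase activity, stood at 141, 139 and 133 CPM in the HK2 libraries, 129, 129 and 128 in 786-O and 88.5, 96.5 and 89.4 in 786-M1A. It was 1.51-fold lower (log2 fold change -0.59 ± 0.041 SE, adjusted p = 1.05e-11) in 786-M1A than in HK2 cells and 1.41-fold lower (log2 fold change -0.49 ± 0.041 SE, adjusted p = 1.36e-09) in 786-M1A than in 786-O.

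The difference of *PFKFB3* between 786-O and HK2 cells was small (log2 fold change -0.10, adjusted p = 0.0283), and it was lost without 786-O replicate 2 (adjusted p = 0.0596), 786-O replicate 3 (adjusted p = 0.0792), HK2 replicate 1 (adjusted p = 0.105) or HK2 replicate 2 (adjusted p = 0.0643). Per kilobase *PFKFB3* made up 84.2% ± 0.59 (SD, n = 3) of the 3 *PFKFB* genes in HK2 cells, 79.1% ± 0.60 in 786-O and 80.9% ± 0.89 in 786-M1A. The summed level was 26.8 ± 0.96, 26.6 ± 0.29 and 18.5 ± 0.68 CPM per kb, and the exact two-sided permutation test gave p = 0.9 for 786-O and p = 0.1 for 786-M1A against HK2 cells. All 3 genes were lower in 786-M1A than in 786-O.

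Among the aldolases, which split fructose 1,6-bisphosphate, *ALDOA* is the main form and *ALDOC* the brain form. *ALDOA* stood at 869.8, 866 and 865 CPM in the HK2 libraries, 1361, 1290.0 and 1279 in 786-O and 1780.0, 1649 and 1654 in 786-M1A, with no overlap between lines. It was 1.51-fold higher (log2 fold change 0.59 ± 0.036 SE, adjusted p = 9.32e-13) in 786-O and 1.95-fold higher (log2 fold change 0.97 ± 0.036 SE, adjusted p = 1.51e-16) in 786-M1A than in HK2 cells, and 1.29-fold higher (log2 fold change 0.37 ± 0.035 SE, adjusted p = 1.22e-08) in 786-M1A than in 786-O.

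*ALDOC* (chr17:28573115-28576948, minus strand) was the scarcest of the 38 genes in HK2 cells, with 12 to 22 counts per library there, 69 to 91 in 786-O and 111 to 123 in 786-M1A. Its levels were 0.546, 0.297 and 0.475 CPM in the HK2 libraries, 2.05, 1.83 and 2.01 in 786-O and 3.4, 2.89 and 3.06 in 786-M1A. It passed the filter of a mean of 50 counts over all libraries only through the cancer lines and so had to differ, and its fold changes are given as a description. It was 4.51-fold higher (log2 fold change 2.17 ± 0.197 SE, adjusted p = 1.17e-09) in 786-O and 7.14-fold higher (log2 fold change 2.84 ± 0.182 SE, adjusted p = 2.67e-12) in 786-M1A than in HK2 cells, with wider errors than the abundant genes, and was 1.58-fold higher (log2 fold change 0.66 ± 0.130 SE, adjusted p = 0.000179) in 786-M1A than in 786-O. Even so it made up 0.269% ± 0.012 (SD, n = 3) of aldolase mRNA per kilobase in 786-M1A.

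The other enzymes of the chain differed by at most 1.36-fold in the 3 comparisons, and their log2 fold changes are given in the order 786-O against HK2 cells, 786-M1A against HK2 cells and 786-M1A against 786-O. *GPI*, which isomerizes glucose 6-phosphate, had log2 fold changes of 0.29 and 0.24 in 786-O and 786-M1A against HK2 cells and -0.04 between the cancer lines (adjusted p = 2.33e-07, 2.44e-06 and 0.318). *GAPDH*, often used as a reference gene, was lower in both cancer lines, with 4418, 4502 and 4349 CPM in the HK2 libraries, 3401, 3249 and 3311 in 786-O and 3550.0, 3333 and 3350.0 in 786-M1A. Its log2 fold changes were -0.41 and -0.38 against HK2 cells (adjusted p = 8.27e-11 and 3.93e-10) and 0.04 between the cancer lines (adjusted p = 0.322). *GAPDH* has 65 pseudogenes in GENCODE, so that reads of near-identical copies may have been lost or split.

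*TPI1*, which interconverts the triose phosphates, had log2 fold changes of -0.04, 0.14 and 0.17 in the same order (adjusted p = 0.345, 0.000985 and 0.000227). *PGK1*, which makes the first ATP of the payoff phase, had log2 fold changes of -0.26, -0.02 and 0.24 (adjusted p = 1.16e-07, 0.49 and 1.54e-06), so that 786-O was below both other lines.

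*PGAM1*, phosphoglycerate mutase, had log2 fold changes of 0.20, 0.12 and -0.08 (adjusted p = 2.43e-05, 0.00416 and 0.0573), and the last of these passed without 786-M1A replicate 1 (adjusted p = 0.0416) or HK2 replicate 2 (adjusted p = 0.046). *ENO1* had log2 fold changes of 0.08, 0.33 and 0.25 (adjusted p = 0.0222, 2.16e-09 and 6.39e-07), and its first difference was lost without 786-O replicate 1 (adjusted p = 0.108) or HK2 replicate 3 (adjusted p = 0.0742). *ENO2*, the neuronal enolase, had log2 fold changes of 0.42, 0.42 and 0.00 (adjusted p = 1.35e-07, 1.32e-07 and 0.995) and held 1.90%, 2.39% and 2.01% of enolase mRNA per kilobase in the 3 lines.

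*PKM*, pyruvate kinase, which closes the chain, had log2 fold changes of 0.44, 0.35 and -0.09 (adjusted p = 1.75e-11, 9.37e-10 and 0.0145). The small difference between the cancer lines was lost without 786-M1A replicate 2 (adjusted p = 0.0779), 786-M1A replicate 3 (adjusted p = 0.0597), 786-O replicate 1 (adjusted p = 0.0786) or 786-O replicate 3 (adjusted p = 0.0592). The gene counts do not tell the M1 and M2 splice forms of *PKM* apart. Over the 15 genes from hexokinase to pyruvate kinase, *ALDOC* included, 10 were higher, 4 lower and 1 not called in 786-O against HK2 cells, 11, 2 and 2 in 786-M1A against HK2 cells, and 9, 2 and 4 in 786-M1A against 786-O (of all genes tested, 41.6% were called higher and 42.6% lower in the first comparison, 41.6% and 43.3% in the second and 27.9% and 28% in the third).

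Among the 9 genes of pyruvate entry, 2 were higher and 4 lower in 786-O than in HK2 cells, 2 higher and 7 lower in 786-M1A than in HK2 cells, and 2 higher and 3 lower in 786-M1A than in 786-O, where 41.6% of all genes tested were higher and 42.6% lower in the first comparison, 41.6% and 43.3% in the second and 27.9% and 28% in the third. Their summed share of all counts was 0.0617% ± 0.0010 (SD, n = 3) in HK2 cells, 0.0457% ± 0.0011 in 786-O and 0.0433% ± 0.0002 in 786-M1A. Every HK2 library lay above those of both cancer lines (exact two-sided permutation test, p = 0.1). As CPM after TMM scaling the sum was 593.2 to 606.1 in HK2 cells, 443.9 to 461 in 786-O and 446.1 to 448.8 in 786-M1A, so that the libraries of the cancer lines overlapped on this scale (p = 0.4 in the same exact test). The largest CPM differences from HK2 cells were those of *PDP1* (means of 145.9, 35.27 and 56.89 CPM in the 3 lines) and *PDHA1* (164.9, 115.3 and 110.3), while *DLAT* and *MPC2* were higher. The sum also adds kinases to the phosphatase that counteracts them.

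*PDP1* codes for the phosphatase that removes the inhibitory phosphates from the E1 subunit and so activates pyruvate dehydrogenase. It stood at 148, 144 and 146 CPM in the HK2 libraries, 33.9, 34.9 and 37 in 786-O and 55.3, 55.4 and 60 in 786-M1A. Every HK2 library was above every library of the cancer lines, and 786-O was the lowest. *PDP1* was 4.14-fold lower (log2 fold change -2.05 ± 0.045 SE, adjusted p = 1.8e-20) in 786-O and 2.57-fold lower (log2 fold change -1.36 ± 0.044 SE, adjusted p = 1.21e-17) in 786-M1A than in HK2 cells, the strongest decrease of the 38 genes in 786-O. In 786-M1A it was 1.61-fold higher (log2 fold change 0.69 ± 0.046 SE, adjusted p = 4.43e-11) than in 786-O.

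The kinases that counteract it, *PDK1*, *PDK2* and *PDK3*, were not called higher in either cancer line than in HK2 cells. *PDK1*, known as a HIF target, stood at 20.1, 20 and 19.1 CPM in the HK2 libraries, 13.4, 13.8 and 14.1 in 786-O and 16.1, 18.2 and 18.1 in 786-M1A. It was 1.43-fold lower (log2 fold change -0.52 ± 0.061 SE, adjusted p = 7.08e-08) in 786-O than in HK2 cells, the lowest of the 3 lines, and 1.27-fold higher (log2 fold change 0.34 ± 0.062 SE, adjusted p = 6.76e-05) in 786-M1A than in 786-O. Between 786-M1A and HK2 cells the log2 fold change was -0.17 (adjusted p = 0.0103), a difference which was lost without 786-M1A replicate 1 (adjusted p = 0.0747).

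*PDK2* (chr17:50094737-50112152, plus strand), the broadly expressed kinase, stood at 30, 27.4 and 28.4 CPM in the HK2 libraries, 28.1, 25 and 27.8 in 786-O and 16, 14.2 and 15.1 in 786-M1A. The HK2 and 786-O libraries overlapped, and all 786-M1A libraries were below them. *PDK2* did not pass the threshold between 786-O and HK2 cells (log2 fold change -0.08, adjusted p = 0.186) and was 1.89-fold lower (log2 fold change -0.92 ± 0.062 SE, adjusted p = 5.89e-12) in 786-M1A than in HK2 cells and 1.79-fold lower (log2 fold change -0.84 ± 0.062 SE, adjusted p = 1.86e-10) in 786-M1A than in 786-O.

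*PDK3* had log2 fold changes of -0.09, -0.13 and -0.04 in the 3 comparisons (adjusted p = 0.141, 0.0365 and 0.554). The first of these passed without 786-O replicate 2 (adjusted p = 0.0472), and the second was lost without 786-M1A replicate 1 (adjusted p = 0.182), 786-O replicate 1 (adjusted p = 0.0519), HK2 replicate 1 (adjusted p = 0.0695) or HK2 replicate 3 (adjusted p = 0.156). Per kilobase *PDK2* made up 63.1% ± 0.84 (SD, n = 3), 65.8% ± 2.31 and 50.02% ± 2.97 of the 3 kinases, whose sum was 8.29 ± 0.28, 7.48 ± 0.22 and 5.52 ± 0.10 CPM per kb in HK2 cells, 786-O and 786-M1A (exact two-sided permutation test of the sum, p = 0.1 for each pair).

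**Figure D4:**
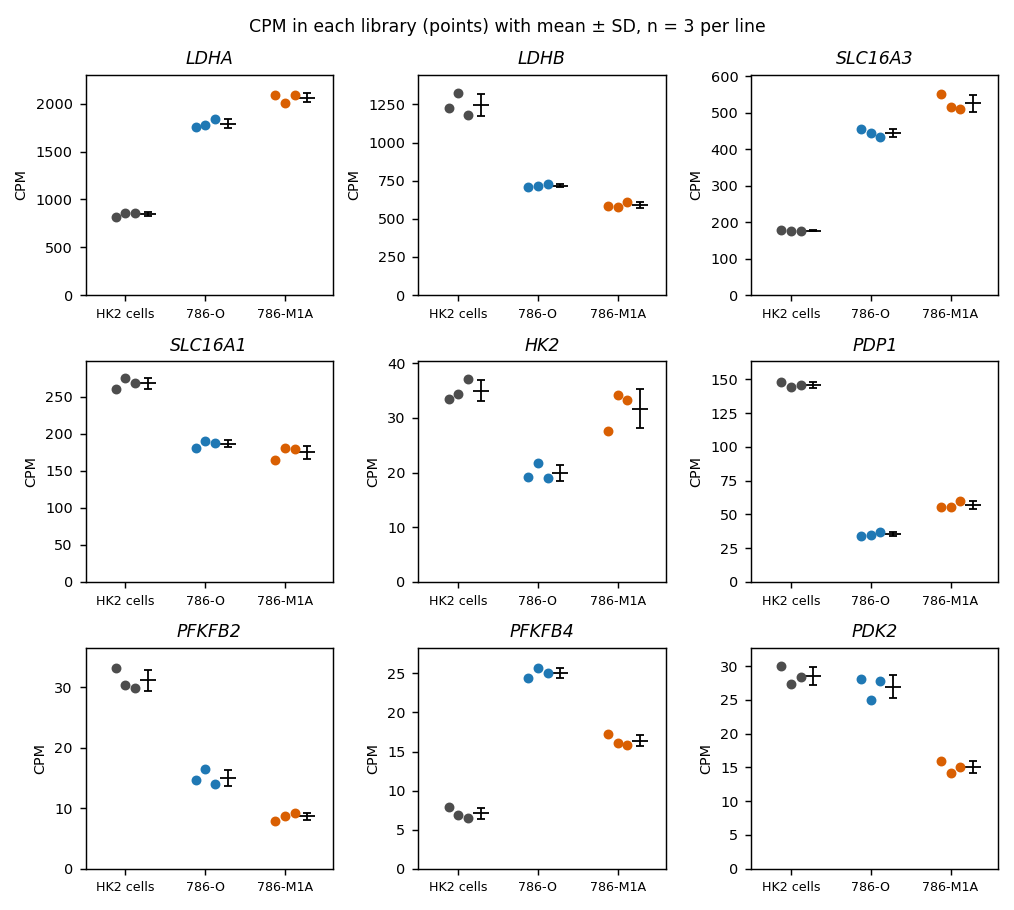
CPM (y axis, from 0) of 9 genes in each library (points, 3 per line) with the mean and SD (n = 3). *LDHA* and *SLC16A3* are higher and *LDHB*, *SLC16A1*, *PDP1* and *PFKFB2* lower in both cancer lines, *HK2* is low in 786-O, *PDK2* in 786-M1A, and *PFKFB4* peaks in 786-O.

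The subunits of the complex itself differed less. *PDHA1*, the catalytic E1 alpha subunit, had log2 fold changes of -0.52 in 786-O and -0.58 in 786-M1A against HK2 cells and -0.06 between the cancer lines (adjusted p = 5.03e-11, 6.24e-12 and 0.171). *PDHB*, the E1 beta subunit, had log2 fold changes of -0.05, -0.11 and -0.06 (adjusted p = 0.312, 0.0236 and 0.228), and the second of these was lost without 786-M1A replicate 2 (adjusted p = 0.0599), HK2 replicate 1 (adjusted p = 0.0523) or HK2 replicate 2 (adjusted p = 0.0983). *DLAT*, the E2 subunit, had log2 fold changes of 0.13, 0.16 and 0.03 (adjusted p = 0.0055, 0.0012 and 0.586).

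The mitochondrial pyruvate carrier is built of both *MPC1* and *MPC2*, which differed from HK2 cells in opposite directions. *MPC1* had log2 fold changes of -0.22, -0.72 and -0.50 (adjusted p = 0.00711, 1.32e-08 and 1.09e-05), and was the lowest in 786-M1A. *MPC2* had log2 fold changes of 0.40, 0.21 and -0.19 (adjusted p = 4.17e-08, 0.000271 and 0.000997). *MPC1* made up 23.6% ± 1.19 (SD, n = 3) of the carrier mRNA per kilobase in HK2 cells, 16.7% ± 0.47 in 786-O and 14.0% ± 0.85 in 786-M1A.

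In the pentose phosphate pathway no gene reached 2-fold, and 3 genes were higher and 3 lower in 786-O than in HK2 cells, 4 and 2 in 786-M1A than in HK2 cells, and 4 and 1 in 786-M1A than in 786-O. The shares of all genes tested were 41.6% higher and 42.6% lower, 41.6% and 43.3%, and 27.9% and 28% in these comparisons. *H6PD*, which oxidizes glucose 6-phosphate in the endoplasmic reticulum, showed the largest difference in 786-O, with log2 fold changes of 0.89, 0.52 and -0.37 (adjusted p = 3.48e-13, 4.01e-09 and 1.69e-06). *PGLS*, the lactonase of the oxidative branch, had log2 fold changes of 0.65, 0.86 and 0.21 (adjusted p = 3.83e-09, 3.53e-11 and 0.00377). *PGD*, which makes the second NADPH, had log2 fold changes of 0.06, 0.15 and 0.09 (adjusted p = 0.0944, 0.000411 and 0.0371), and the last of these was lost without 786-M1A replicate 1 (adjusted p = 0.138), 786-O replicate 2 (adjusted p = 0.129) or 786-O replicate 3 (adjusted p = 0.124).

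Of the non-oxidative branch, the isomerase *RPIA* had log2 fold changes of -0.41, -0.51 and -0.10 (adjusted p = 7.31e-08, 3.04e-09 and 0.108). The epimerase *RPE* had log2 fold changes of -0.35, -0.25 and 0.10 (adjusted p = 1.62e-07, 1.62e-05 and 0.0601), and its last difference passed without 786-M1A replicate 1 (adjusted p = 0.0317). Both make the interconversions of pentose phosphates, and both were lower in the cancer lines than in HK2 cells.

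Transketolase (*TKT*) and transaldolase (*TALDO1*) link the branch back to glycolysis. *TKT* had log2 fold changes of -0.21, 0.01 and 0.23 (adjusted p = 7.84e-05, 0.739 and 8.68e-05), so that 786-O was below both other lines. *TALDO1* was higher in both, with log2 fold changes of 0.48, 0.61 and 0.14 (adjusted p = 2.16e-10, 2.55e-12 and 0.0053).

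For the known regulators of these genes the direction of the mRNA was also measured. *HIF1A*, the HIF-1 alpha subunit, stood at 704, 678 and 718 CPM in the HK2 libraries, 9.69, 9.87 and 10.4 in 786-O and 6.72, 7.01 and 6.58 in 786-M1A, 70.1-fold lower in 786-O and 103.5-fold lower in 786-M1A than in HK2 cells (log2 fold changes -6.13 and -6.69, adjusted p = 7.69e-28 and 5.67e-28). *EPAS1*, the HIF-2 alpha subunit, had log2 fold changes of -1.94, -1.31 and, between the cancer lines, 0.63 (adjusted p = 3.16e-20, 1.93e-17 and 8.02e-11). *ARNT*, their shared partner, had log2 fold changes of 0.29, 0.30 and 0.01 (adjusted p = 3.17e-06, 2.16e-06 and 0.886).

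*MYC*, a transcription factor known to activate *LDHA*, had log2 fold changes of -1.97, -2.19 and -0.21 (adjusted p = 1.98e-20, 3.81e-21 and 0.000375). *NFE2L2* (NRF2), an activator of pentose phosphate genes, had log2 fold changes of -0.17, -0.29 and -0.13 (adjusted p = 0.000179, 1.11e-07 and 0.00476). HIF proteins are controlled by degradation, so that these values speak of mRNA only, and their part in the levels of the 38 genes was not tested.

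The HIF dimer binds the letters ACGTG or GCGTG, and both were searched on both strands in promoters of RefSeq (GRCh38.p14, 250 bases before to 50 after each start), which covered 35 of the 38 genes with 65 promoters. ACGTG is also part of the E-box CACGTG, which *MYC* binds. Windows of 21 bases, with the match in capitals (read on the strand of the gene, where CACGT is the reverse complement of ACGTG), are shown for 4 genes that were higher in both cancer lines and for 2 that were lower in 786-O.
*LDHA*, chr11:18394469-18394489, plus strand: cgactcacACGTGggttcccg
*SLC16A3*, chr17:82228966-82228986, plus strand: aggcggtgACGTGcgcggggg
*PFKP*, chr10:3069042-3069062, plus strand: gagcgcctACGTGatgcccgg
*ALDOC*, chr17:28577122-28577142, minus strand: tgcccggcACGTGgtaaaggg
*PDK1*, chr2:172556065-172556085, plus strand: ctgcccgcCACGTccctcacg
*HK2*, chr2:74834064-74834084, plus strand: gccaatggGCGTGcgcacgtc
The matches shown for *LDHA* and *ALDOC* lie within an E-box. *HK2* held 9 matches in its 2 promoters, and some of those not shown also lie within an E-box. At least 1 match was found in 40 of the 65 promoters of these genes (61.5%), in 61.2% of the promoters of the genes tested and in 48.4% of all promoters. ACGTG alone was found in 35.4%, 25.7% and 21.4%, and CACGTG in 12.3%, 9.51% and 7.26%. A gene can have several promoters here, which may share bases, so that the 65 promoters are not separate units. By gene, 29 of the 35 held a match and 19 held ACGTG in at least 1 promoter. The same shares by gene were not counted over all genes. Genes that were higher and genes that were lower in 786-O both held these letters, which are a description of the sequence and not of binding.

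36 other genes of the same pathways, among them tissue-restricted isozymes, were listed beside the 38, and 23 of them were expressed enough to be tested. 8 were higher and 14 lower in 786-O than in HK2 cells, 8 and 14 in 786-M1A than in HK2 cells, and 5 and 9 in 786-M1A than in 786-O, beside 41.6% of all genes higher and 42.6% lower, 41.6% and 43.3%, and 27.9% and 28%. These counts include *ENO3*, *LDHC* and *PGAM2*, whose counts averaged under 50 over the lines where they were low, so that they passed it only through the lines where they were high and had to differ. The list also holds isozymes that complete the steps above.

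*HKDC1*, a further hexokinase, stood at 229.9, 220.2 and 221 CPM in the HK2 libraries, 91.2, 87.4 and 90.1 in 786-O and 44.2, 41.6 and 43 in 786-M1A. No library of one line overlapped with those of another. *HKDC1* was 2.50-fold lower (log2 fold change -1.32 ± 0.038 SE, adjusted p = 2.18e-18) in 786-O and 5.22-fold lower (log2 fold change -2.38 ± 0.041 SE, adjusted p = 1.78e-22) in 786-M1A than in HK2 cells, and 2.09-fold lower (log2 fold change -1.06 ± 0.041 SE, adjusted p = 3.29e-15) in 786-M1A than in 786-O. *SLC16A7*, which codes for the high-affinity monocarboxylate transporter MCT2, stood at 38, 35.8 and 36.4 CPM in the HK2 libraries, 11.6, 12.6 and 11.4 in 786-O and 2.1, 2.53 and 1.93 in 786-M1A, again without overlap. It was 3.10-fold lower (log2 fold change -1.63 ± 0.061 SE, adjusted p = 1.84e-16) and 16.78-fold lower (log2 fold change -4.07 ± 0.082 SE, adjusted p = 2.76e-21) than in HK2 cells, and 5.41-fold lower (log2 fold change -2.44 ± 0.093 SE, adjusted p = 2.78e-15) in 786-M1A than in 786-O.

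The muscle enolase *ENO3* and the testis lactate dehydrogenase *LDHC* were low in all lines. *ENO3* stood at 4.92, 5.08 and 4.92 CPM in the HK2 libraries, 0.473, 0.663 and 0.425 in 786-O and 0.608, 0.417 and 0.396 in 786-M1A, and *LDHC* at 4.76, 5.58 and 4.72 CPM in the HK2 libraries, 0.428, 0.239 and 0.33 in 786-O and 1.3, 1.15 and 1.53 in 786-M1A. *ENO3* had 153 to 228 counts per library in HK2 cells and 15 to 25 in the cancer lines. *LDHC* had 148 to 225 counts in HK2 cells, 9 to 19 in 786-O and 44 to 58 in 786-M1A. Both were above the cancer lines in every HK2 library. The muscle mutase *PGAM2* stood at 0.578, 0.595 and 0.647 CPM in the HK2 libraries, 2.21, 2.44 and 2.17 in 786-O and 1.82, 1.98 and 1.98 in 786-M1A, on 18 to 30 counts per library in HK2 cells, and every cancer library was above them. *PDHX*, which tethers the E3 subunit of pyruvate dehydrogenase, was higher in both cancer lines than in HK2 cells. It was 1.48-fold higher (log2 fold change 0.56, adjusted p = 1.1e-10) in 786-O and 1.19-fold higher (log2 fold change 0.25, adjusted p = 2.87e-05) in 786-M1A. Between the cancer lines *PDHX* was 1.24-fold lower (log2 fold change -0.31 ± 0.044 SE, adjusted p = 3.2e-06) in 786-M1A than in 786-O.

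**Figure D5:**
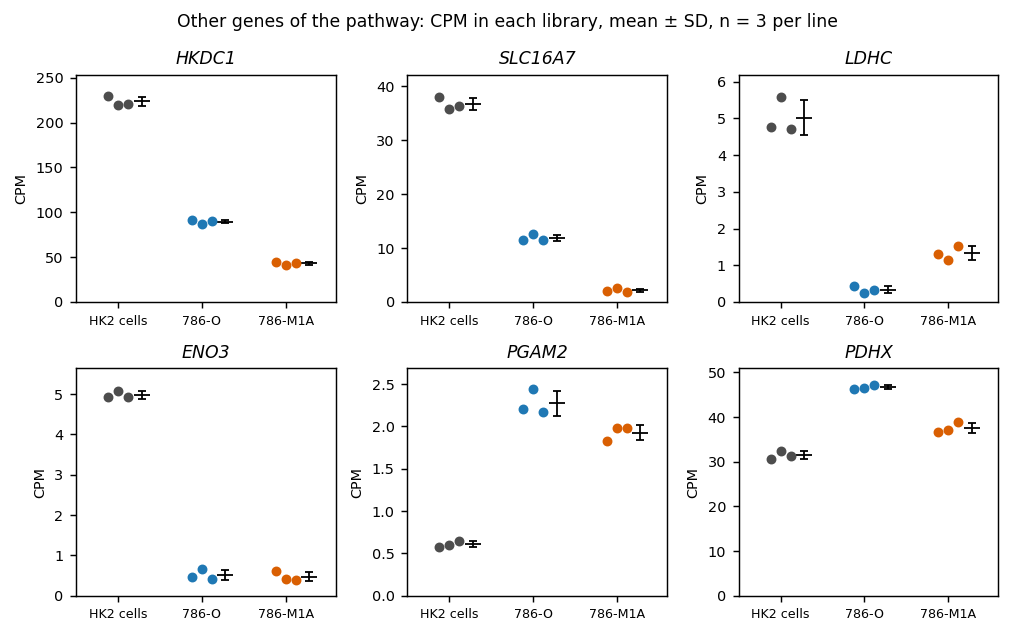
CPM (y axis, from 0) of 6 other pathway genes in each library (points, 3 per line) with the mean and SD (n = 3). *HKDC1* and *SLC16A7* step down from HK2 cells to 786-O and again to 786-M1A, *ENO3* is low in both cancer lines, *LDHC* is lowest in 786-O, and *PGAM2* is higher in both.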

How the data were processed

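RNA of 9 cultures, 3 per line, was sequenced from TruSeq Stranded mRNA libraries on a NextSeq. The authors deposited raw counts per gene, made with featureCounts on GRCh38 per the labels and the methods, with no normalization. The annotation release and the strand setting are not given in the sources used here. The replicates carry separate labels. The paper describes replicate dishes plated the day before extraction, and a figure legend calls them independent cultures. The p-values thus measure the spread between cultures of a line, and not between donors or separately derived lines. All 9 columns of the table were mapped to samples.

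Symbols came from RefSeq (GRCh38.p14), which matched 27745 of 28395 identifiers, and positions and exon lengths from GENCODE release 44. Counts were scaled with TMM, and 12695 genes whose counts averaged 50 or more over all libraries entered a single fit of edgeR 4.0.16 (robust quasi-likelihood, R 4.3.3) with Benjamini-Hochberg adjustment and a threshold of 0.05. All 38 genes passed this filter on a mean over all libraries, *ALDOC* only through the cancer lines. Standard errors were derived from the F statistic. Ratios and sums per kilobase used the union of annotated exons and were compared with exact two-sided permutation tests, which cannot give less than 0.1 with 3 libraries against 3, so that none of the 10 isozyme pairs could pass the threshold, before or after adjustment. A floor of 3 counts is 0.0661 to 0.0993 CPM and covers counting error only. The HK2 libraries served in 2 of the 3 comparisons, and so did those of each cancer line.

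The alternatives were RLE and upper-quartile scaling, DESeq2 1.42.0, limma-trend (limma 3.58.1), no filter, at least 10 counts in every library, a fit of 2 lines alone, a block for the replicate number, each library left out in turn, and for ratios the longest transcript or the fitted fold changes. A sum of scaled CPM for pyruvate entry was added after the data were seen. The VSN transformation of the study was not used. The genes, lists and comparisons were chosen with earlier results of these data known. Every one of the 38 genes is named. CPM per library were given for genes with at least a 2-fold difference and adjusted p under 0.05 in any comparison and for their isozymes, and, as chosen after their values were seen, for *HK1*, *HK2*, *GAPDH*, *PDK1* and *PDK2*. Of the other pathway genes up to 4 per comparison with the largest differences were named, and the regulators by value. Python 3.11.15, pandas 2.3.3, scipy 1.17.1 and matplotlib 3.10.9 were used for the other steps.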

Additional observations from a re-analysis of the deposited data

Results flagged for a closer look

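In 6 of the 38 genes the log2 fold change against HK2 cells differed between 786-M1A and 786-O by at least 1.5-fold. This is the comparison of 786-M1A with 786-O in the edgeR fit given above, whose adjusted p tests for any difference and not for 1.5-fold. The share of all genes that differ by 1.5-fold was not counted, so that the 6 genes are given as a description. *HK2* (0.67, adjusted p = 1.48e-06), *ALDOC* (0.66, adjusted p = 0.000179) and *PDP1* (0.69, adjusted p = 4.43e-11) were higher in 786-M1A. *PFKFB2* (-0.79, adjusted p = 1.43e-08), *PFKFB4* (-0.61, adjusted p = 2.2e-08) and *PDK2* (-0.84, adjusted p = 1.86e-10) were lower. The libraries of the cancer lines did not overlap in any of these 6 genes, which were picked for a large difference, and did not overlap in 61.6% of all genes. *HK2*, *PDP1* and *PFKFB4* were nearer to their level in HK2 cells in 786-M1A than in 786-O, and *PFKFB2*, *ALDOC* and *PDK2* were further from it.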

How the results depend on the processing

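The counts of called genes stayed within 1.5 times the reported count under all alternatives, and no fold change changed its direction past the threshold. Over the settings, the genes called numbered 32 to 33 of 38 for 786-O against HK2 cells, 33 to 36 for 786-M1A against HK2 cells and 25 to 28 for 786-M1A against 786-O. Of 1938 fold changes of single genes under alternatives, 1889 stayed on the same side of the threshold in the same direction, 33 were lost and 16 were gained, all in small differences of *ENO1*, *PGD*, *PFKFB3*, *PDK3*, *PGAM1*, *HK2*, *PDK1*, *PDHB*, *SLC16A1*, *PFKM*, *PKM* and *RPE*. With the replicate block 33, 36 and 28 genes were called, and *HK2* in 786-M1A against HK2 cells (adjusted p = 0.0299) and *SLC16A1* between the cancer lines (adjusted p = 0.0266) were gained. Deviations of libraries of the same number from their line means had r of 0.215, 0.074 and 0.110 between 786-M1A and 786-O. In the comparisons with HK2 cells r lay from -0.167 to 0.038. The numbers were not taken as pairs in the reported fit, and the replicate block gives the calls with them. Upper-quartile scaling gave 7 genes past 2-fold in 786-O against HK2 cells in place of 8. Gene counts do not separate transcripts, pseudogene copies or, if strand was not used, overlapping genes on opposite strands, and depth limits *ALDOC* and *LDHC* most.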
